A study of Bos indicus with 9 samples.

Results

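The corpora lutea of 3 cows given a low dose of equine chorionic gonadotropin (eCG), titled stimulated, were compared with those of the other 6 cows of the series. These 3 arrays of 9 were chosen by their titles, and the other 6 are titled control (3 arrays) and superovulated (3 arrays). The comparison asked which genes set the low-dose animals apart from both untreated and high-dose animals. The difference used, stimulated minus the mean of the other groups' means, cancels a change in equal steps from control to stimulated to superovulated. An uneven change, such as a shift in the control or superovulated group alone, still enters this difference and the counts made from its p. All 9 animals were crossbred Nelore cows (Bos indicus) of 2 to 5 years, kept on pasture with supplement, and all went through 1 synchronisation protocol of estradiol benzoate and a device that releases progesterone. Control cows received no eCG. Stimulated cows received 400 IU on day 8 of the synchronisation and superovulated cows 2000 IU on day 4. All corpora lutea were taken at slaughter on day 6 after ovulation, and total RNA of each animal went to 1 Affymetrix bovine array. The low and the high dose were also given on different days, so dose and day cannot be told apart. The labels do not state how many corpora lutea a superovulated cow carried or which of them was used.

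The corpus luteum forms from the wall of the ovulated follicle and secretes progesterone, which prepares the uterus for pregnancy. In its first days it grows quickly, with new capillaries, dividing cells and resident macrophages among the steroid-making luteal cells. eCG is a long-lived placental hormone of the mare that in cattle binds the receptors of both luteinising and follicle-stimulating hormone. It is given at a low dose to support the growth of a single follicle and at a high dose to make several follicles ovulate.

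Signals are given on the log2 scale, where a difference of 1 is a doubling, and levels are compared between arrays, not between probe sets. Array medians ran from 4.18 to 4.24. Correlations of signal over all probe sets ran from 0.988 to 0.994 within groups and from 0.986 to 0.994 between groups. The luteal markers STAR, CYP11A1 and HSD3B1 were bright on all 9 arrays, with no signal under 13.92. For 6 cattle control transcripts, the difference between probe sets at the 3' and 5' ends, a sign of RNA quality, had a mean on the stimulated arrays that differed by -0.18 to 0.09 from that on the others. Their unadjusted p ran from 0.143 to 0.988 (2-sided exact permutation test). The smallest p that 3 arrays against 6 allow is 0.0119, with which no lone transcript of the 6 could pass after adjustment.

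PRSS2, which encodes a trypsinogen, the precursor of the digestive protease trypsin, fell in the stimulated corpora lutea. Its signal was 2.51, 2.18 and 2.25 on the 3 stimulated arrays. The control arrays had 8.24, 8.55 and 7.76, and the superovulated arrays 9.83, 8.94 and 8.57. All 3 stimulated arrays lay below all others, with a gap of 5.25 between the highest stimulated and the lowest other array. The mean was 2.31 ± 0.17 (SD, n = 3) against 8.65 ± 0.70 (SD, n = 6). The difference between the stimulated mean and the mean of the other groups' means was -6.33 (SE 0.28, 95% interval -6.99 to -5.68, limma with Benjamini-Hochberg adjusted p = 0.000561), an 80.6-fold lower signal. PRSS2 differed by -5.87 from control and by -6.80 from superovulated, and the superovulated mean was 0.93 above control, which did not pass (limma, adjusted p = 0.797). On the stimulated arrays only 13.1% of all probe sets were dimmer than PRSS2, against 77.0% for the other arrays, and how many fold it was lower rests on where the array's background lies. The array has 1 probe set for it, which the probe table assigns to PRSS2.

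PRSS2 was the 1 of 23942 probe sets that passed at an adjusted p under 0.05 (0.00418%), and 0 passed as higher in this limma test. At an unadjusted p under 0.05, 1198 probe sets had higher signal in stimulated corpora lutea (5%) and 827 had lower signal (3.45%). Between 1 and 3 probe sets passed under the other settings tried, PRSS2 under each of them. A probe set with higher signal and no symbol passed under several of these settings. Without stimulated replicate 3 the count was 2, and without superovulated replicate 3 it was also 2. The other 44 genes that the list of serine proteases and their inhibitors measured did not pass. Of these SPINT2, an inhibitor of membrane-bound serine proteases, had a difference of 0.37 (SE 0.15), and the related SPINT1 had -0.19 (SE 0.07).

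**Figure D1:**
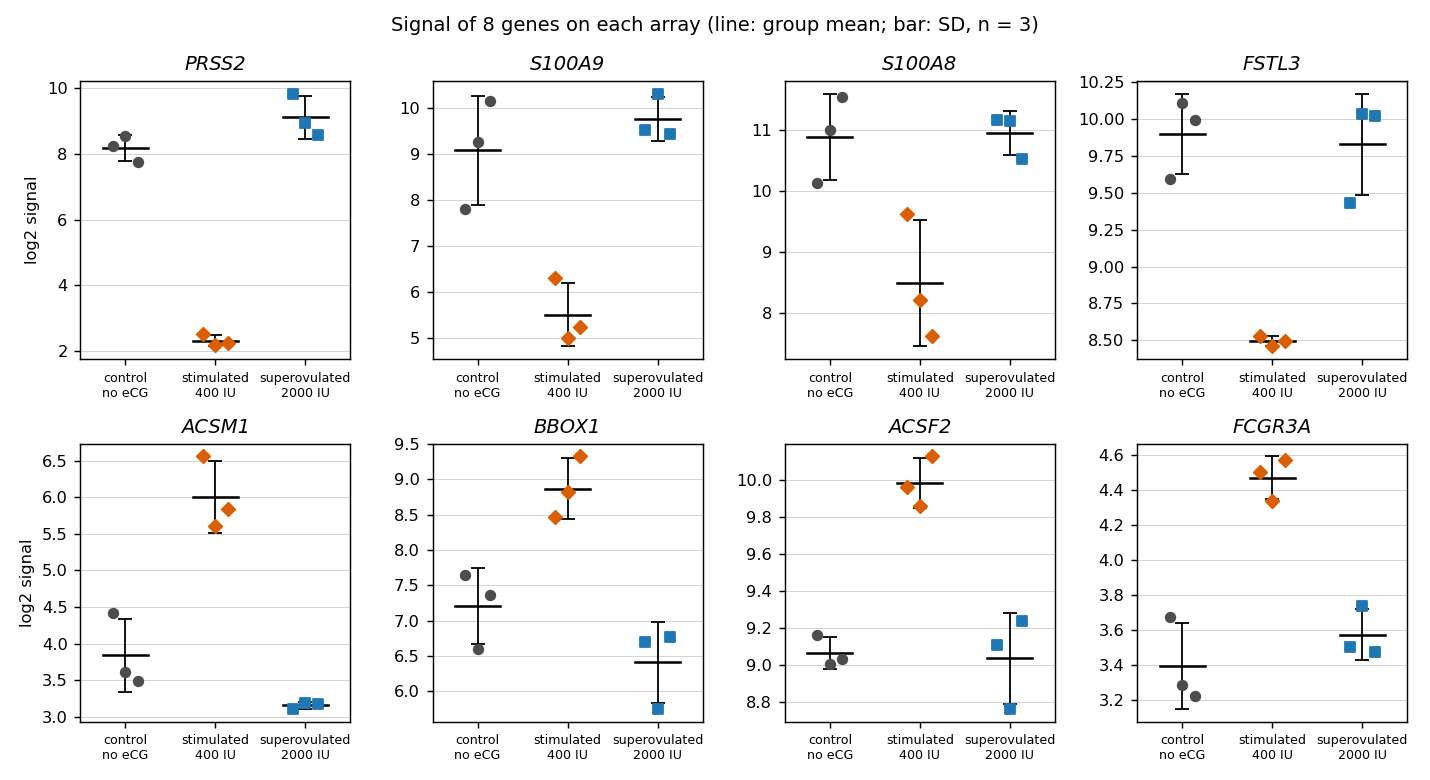
Log2 signal of 8 genes on each array by group; points are animals, lines are group means and bars are SD (n = 3). The 3 stimulated arrays lie below all 6 others for PRSS2, S100A9, S100A8 and FSTL3, and above all 6 for ACSM1, BBOX1, ACSF2 and FCGR3A. PRSS2 alone passed the test.

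The 3 stimulated arrays lay above all 6 others for 183 of 9121 genes (2.01%) and below all 6 for 217 (2.38%), counted with 1 probe set per gene (4.39% in all). Below, genes of this kind are said to part the groups. Of these 400 genes 22 parted upward by a log2 difference of at least 1 (0.241%) and 14 downward (0.153%), PRSS2 among the latter. The remaining 35 did not pass after adjustment, and their values are given without a claim of change. An unadjusted p under 0.05 against both control and superovulated, which share the stimulated arrays, was reached by 130 genes as higher (1.43%) and 124 as lower (1.36%).

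S100A9 and S100A8, the subunits of calprotectin, a calcium-binding protein of neutrophils and monocytes, had the largest negative differences after PRSS2 among genes with a name that parted the groups. S100A9 had 6.30, 5.00 and 5.24 on the stimulated arrays, 7.81, 9.27 and 10.17 on the control arrays and 9.54, 10.32 and 9.44 on the superovulated ones. Its difference was -3.91 (SE 0.52, limma adjusted p = 0.131), and a second probe set had -2.03 and also parted the groups. S100A8 had 9.63, 8.21 and 7.63 on the stimulated arrays, 10.13, 10.99 and 11.53 in control and 11.16, 11.13 and 10.53 in superovulated animals. Its difference was -2.42 (SE 0.47, limma adjusted p = 0.289). For both genes stimulated replicate 1 was the nearest to the other animals.

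FSTL3, a secreted protein that binds and blocks activin, had almost the same signal in the 3 stimulated animals, 8.53, 8.46 and 8.49. The others had 9.59, 10.10 and 9.99 in control and 9.43, 10.03 and 10.02 in superovulated animals. The difference was -1.37 (SE 0.16, limma adjusted p = 0.0871), with -0.07 between superovulated and control. The low-dose animals stood apart while control and superovulated animals overlapped.

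Other genes that parted downward belonged to several functions. P4HA3, a subunit of collagen prolyl hydroxylase, had a difference of -1.46 (SE 0.27). MT2A, a metal-binding metallothionein, had -1.78 (SE 0.59), but its highest stimulated array, 7.28, lay just under superovulated replicate 3 at 7.30. TFRC, the transferrin receptor that brings iron into cells, parted the groups too, with 4.84, 4.17 and 4.01 in stimulated animals. It had 5.06, 5.00 and 5.20 in control and 5.44, 5.51 and 5.87 in superovulated animals, so it also differed between these, by 0.52. MIOX, which starts the breakdown of myo-inositol, had -1.51 (SE 0.43). NUDT11, a phosphatase of inositol pyrophosphates, had -1.47 (SE 0.36), but its other probe set had -0.41 and did not part the groups, and the mean of both was -0.94. TMED6, of a family of cargo receptors between endoplasmic reticulum and Golgi, had -1.27 (SE 0.34), and RERG, a small GTPase, had -1.17 (SE 0.39). NOS2, the inducible nitric oxide synthase, had -1.14 (SE 0.38), yet it also differed by -1.21 between superovulated and control, and with the mean of its 4 probe sets the first difference was -0.36. KRT18, an epithelial keratin, had -1.21 (SE 0.79), which was -0.60 without superovulated replicate 2, the animal at 8.79 while the other 5 lay between 4.89 and 5.77.

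ACSM1, a mitochondrial enzyme that joins medium-chain fatty acids to coenzyme A, had the smallest p among genes with higher signal. The stimulated arrays had 6.56, 5.61 and 5.84, the control arrays 4.41, 3.62 and 3.49, and the superovulated arrays 3.10, 3.18 and 3.18. The lowest stimulated array stood 1.20 above the highest other array. The difference was 2.51 (SE 0.26, 95% interval 1.92 to 3.10, limma adjusted p = 0.0760), a 5.69-fold higher signal that did not pass. Under a mean-variance trend with a robust prior ACSM1 had a limma adjusted p of 0.0326, within a range of 0.0326 to 0.302 over the settings tried.

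BBOX1, the last enzyme of carnitine synthesis, had 8.47, 8.82 and 9.33 in stimulated, 7.64, 6.60 and 7.37 in control and 6.70, 5.75 and 6.78 in superovulated animals. Its difference was 2.06 (SE 0.32, limma adjusted p = 0.214), and a second probe set had 2.08 and parted the groups too. For both ACSM1 and BBOX1 the superovulated mean was below control, by -0.68 and -0.79, and the stimulated mean above it. Neither gene had a steady order from no eCG to the high dose in these means.

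Further genes that parted upward were PRLR, the prolactin receptor, with 1.03 (SE 0.23), HLF, a transcription factor of circadian output, with 1.12 (SE 0.22), and TRMT12, which modifies transfer RNA, with 1.04 (SE 0.18). The other probe set of TRMT12 had 0.20 and did not part the groups, and the mean of both was 0.62. That of HLF had 0.29 and parted them, with a mean of 0.71. PRLR was dim on every array, with 2.94 to 3.97 in stimulated and 2.14 to 2.77 in the other animals. CD300LG, a receptor of capillary endothelium, had 1.25 (SE 0.25), and its other probe set parted the groups as well, with 0.74. RTP4, which interferon induces, had 1.45 (SE 0.27), and both of its other probe sets parted upward with 0.43 and 0.53, which gave a mean of 0.81. Immune genes made up several of the others and are described by list.

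**Figure D2:**
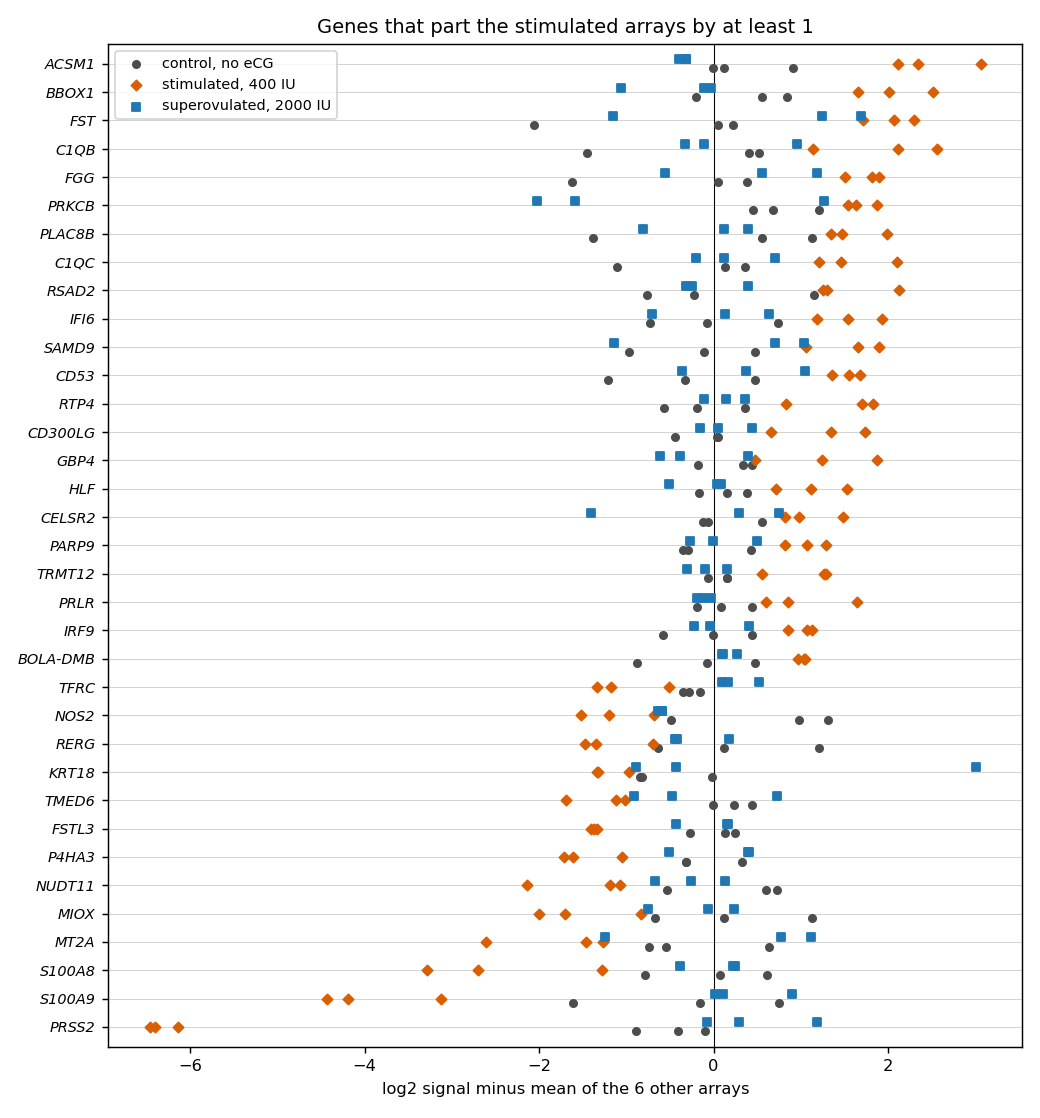
Log2 signal of each array minus the mean of the 6 other arrays, for all 35 named genes (1 uncharacterised locus is left out) that parted the groups by at least 1; orange diamonds are stimulated, grey circles control and blue squares superovulated animals. PRSS2, S100A9 and S100A8 stand farthest down, ACSM1 and BBOX1 farthest up. For FST, SAMD9, MT2A and GBP4 the gap to the nearest other animal was 0.01, 0.02, 0.02 and 0.04.

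The estimated difference between the stimulated and the other groups is by design uncorrelated with that between superovulated and control. The p of both share 1 spread per probe set. Between superovulated and control 0 probe sets passed (limma, with 620, or 2.59%, higher and 863, or 3.6%, lower at an unadjusted p under 0.05). Of the 400 genes that parted the stimulated arrays 22 (5.5%) had an unadjusted p under 0.05 between superovulated and control, against 5.25% of all genes. Parting also depends on how the 6 other arrays are spread, so this share is not independent of it. Among all genes the stimulated mean lay between the other means for 2607 (28.6%), above both for 3071 and below both for 3443. Large differences on both axes were seen for FST (2.02 and 1.19), LYZ2 (1.06 and 1.79), AIF1 (0.92 and 1.63) and NOS2. The value of LYZ2 is that of 1 of 4 probe sets: the other 3 had -0.12 to 0.13 on the first axis, and the mean of all 4 was 0.29. The podoplanin gene PDPN, of lymphatic endothelium and stroma, had -1.25 on the first and 1.86 on the second. The first was -0.77 without stimulated replicate 3.

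**Figure D3:**
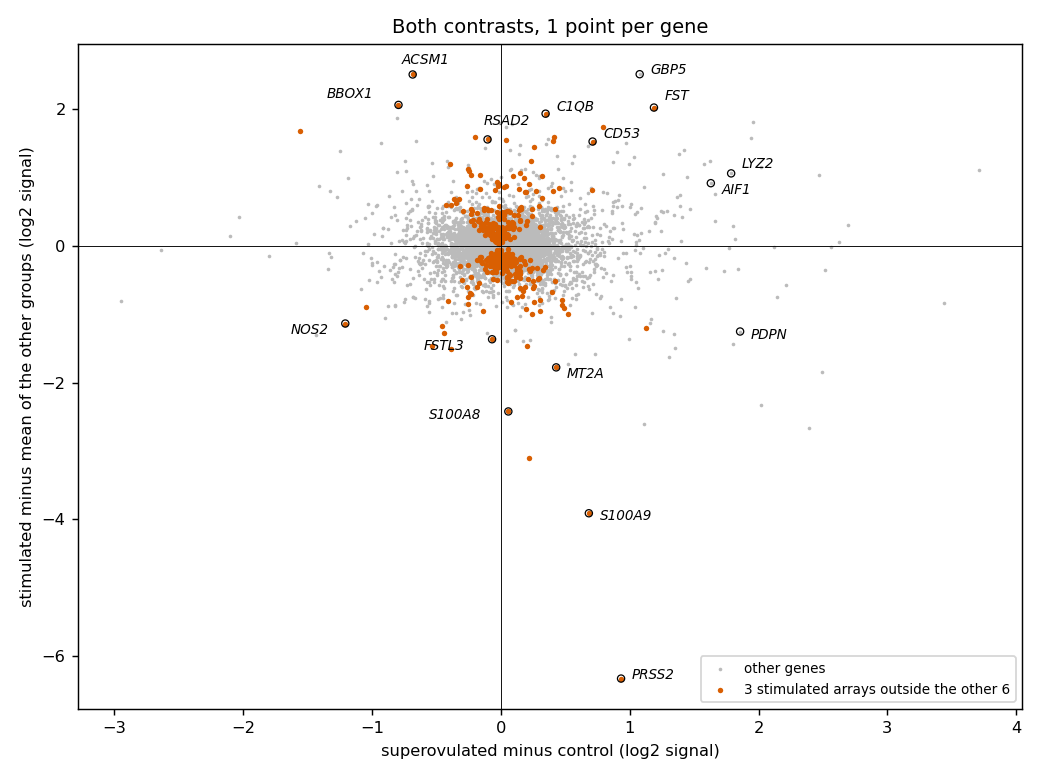
Difference between stimulated and the mean of the other groups (vertical, log2) against superovulated minus control (horizontal, log2), 1 point per gene; orange points parted the groups. PRSS2, S100A9, S100A8 and FSTL3 lie far below 0 on the vertical axis at horizontal values of 0.93, 0.68, 0.06 and -0.07, while LYZ2 and AIF1 lie to the right.

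Interferon-stimulated genes, the antiviral and antigen-processing genes that cells switch on after interferon, had higher signal in stimulated corpora lutea as a list. Of 48 genes measured, 21 had higher and 0 lower signal at an unadjusted p under 0.05, where all genes had 4.73% higher and 4.46% lower. No gene of the list passed after adjustment over all probe sets. The median difference was 0.47, against -0.01 over all genes, and 0.07 between superovulated and control. The stimulated mean was the highest of the group means for 40 of the 48 genes and between the others for 5 (10.4%, against 28.6% of all genes). The list's mean signal per array was 7.74, 7.26 and 7.51 in stimulated, 6.73, 7.15 and 6.62 in control and 7.21, 6.75 and 6.96 in superovulated animals. The stimulated arrays lay above all 6 others, by a small margin at the nearest, while control and superovulated animals overlapped. Without stimulated replicate 1 the median was 0.31 and the count of higher genes 13. Over all 9121 genes the count of higher genes was 431 with all arrays and 355 without that array.

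The list parted for 11 genes upward and 1 downward, 25% of its members, against 4.39% of all genes. Those upward were IFI6, RSAD2, SAMD9, GBP4, PARP9, IRF9, IFI44L, UBA7, DTX3L, ZNFX1 and USP18, and HERC6 was the 1 downward. Some of them stand outside the rule for named genes and are given to complete the count. IRF9, which joins STAT proteins in the factor that interferon activates, had 8.08, 7.80 and 8.02 in stimulated, 6.94, 7.39 and 6.37 in control and 7.36, 6.72 and 6.91 in superovulated animals. Its difference was 1.02 (SE 0.23, limma adjusted p = 0.340). PARP9, a cofactor of interferon signalling, had 1.06 (SE 0.23), UBA7, the enzyme that starts ISG15 conjugation, 0.84 (SE 0.17), and ZNFX1, a helicase that senses viral RNA, 0.51 (SE 0.11). The other probe set of ZNFX1 had 0.03, and the mean of both was 0.27.

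IFI6, an inhibitor of cell death, had 11.32, 10.96 and 11.70 in stimulated animals, 9.70, 10.51 and 9.05 in control and 10.41, 9.07 and 9.91 in superovulated animals. Control replicate 2 was the highest of the others. GBP5, a guanylate-binding protein, had the largest difference of the list at 2.51 (SE 0.63), with 9.38, 7.79 and 7.60 in stimulated animals. Superovulated replicate 3 reached 7.62, so this probe set did not part the groups. Other probe sets of GBP5 had 2.42 and 2.14 and did, while a further, dim probe set had 0.28 and did not. With the mean of all its probe sets GBP5 had 1.84. The classical effector genes MX1 and ISG15, named after their values were seen, had 1.04 (SE 0.53) and 1.20 (SE 0.56), and for both the stimulated and other arrays overlapped.

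Markers of macrophages and other myeloid cells also had higher signal in stimulated animals, but less so against superovulated than against control. At an unadjusted p under 0.05, 14 of 34 genes were higher and 0 lower, against 4.73% and 4.46% of all genes. After adjustment 0 of the list's genes passed. The median difference was 0.76. It was 1.10 against control and 0.24 against superovulated, and 0.56 between superovulated and control. The list's mean was 6.32, 7.10 and 6.57 in stimulated, 5.68, 5.94 and 5.03 in control and 6.04, 6.86 and 5.93 in superovulated animals, and the stimulated and superovulated arrays overlapped. The count of higher genes was 5 without stimulated replicate 3, 8 without stimulated replicate 2, 6 without superovulated replicate 3 and 9 without control replicate 3 or superovulated replicate 1. Over all genes that count was 431 with all arrays. Without the same arrays in turn it was 238, 507, 484, 322 and 404. Without stimulated replicate 2 the median was 0.48. In a whole tissue, more cells of a type and more RNA per cell cannot be told apart.

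Within this list 5 genes (14.7%, against 4.39% of all genes) parted the groups, FCGR3A, C1QC, CD53, C1QB and LCP2. FCGR3A, a receptor for the constant part of immunoglobulin G, had 4.50, 4.33 and 4.57 in stimulated, 3.67, 3.28 and 3.22 in control and 3.50, 3.74 and 3.47 in superovulated animals. Its difference was 0.99 (SE 0.12, limma adjusted p = 0.0871), the smallest p of the list. C1QC and C1QB, chains of the complement component that tissue macrophages make, had 1.59 (SE 0.37) and 1.94 (SE 0.54), and CD53, a tetraspanin of white blood cells, had 1.53 (SE 0.40). In contrast LYZ2, a lysozyme, had 10.33, 10.58 and 10.58 in stimulated, 10.09, 9.91 and 10.98 in superovulated and 9.23, 8.05 and 8.34 in control animals. AIF1, a macrophage actin-binding protein, likewise had 8.34 to 9.15 in stimulated, 8.34 to 9.09 in superovulated and 6.28 to 7.46 in control animals. For both of these the treated groups overlapped and stood above all controls.

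**Figure D4:**
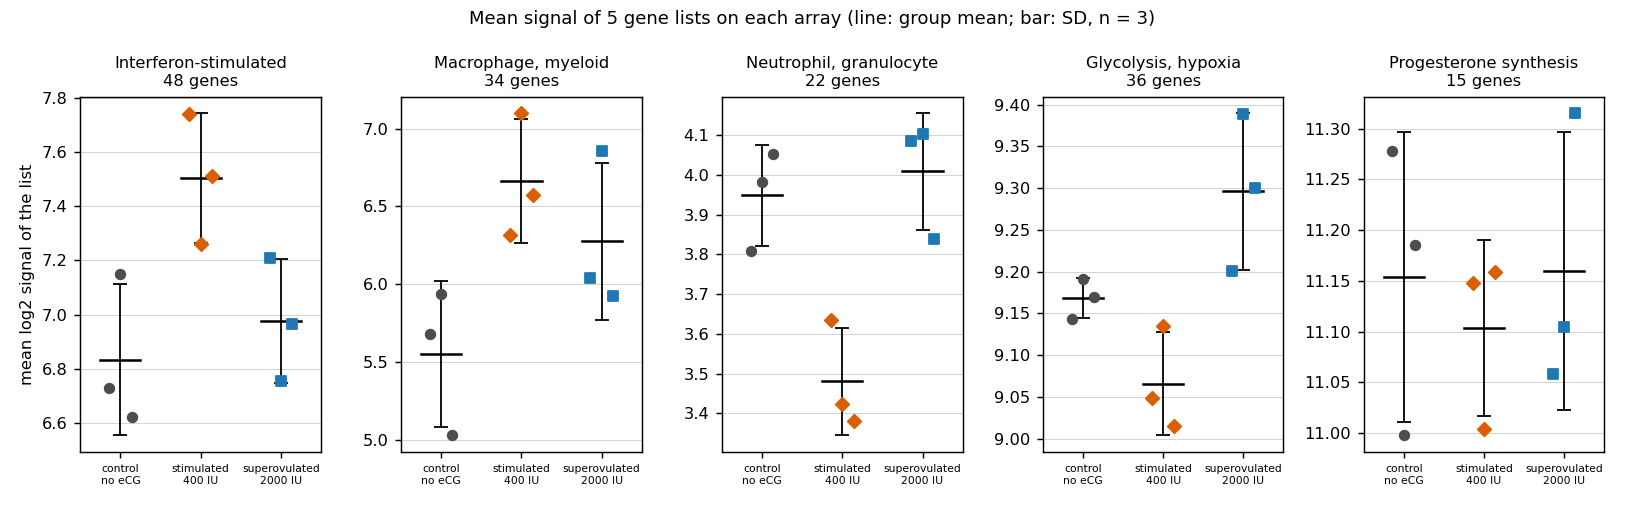
Mean log2 signal of 5 gene lists on each array by group; points are animals, lines are group means and bars are SD (n = 3), and each panel has its own vertical range. Stimulated arrays lie above all others for interferon-stimulated genes and below all others for neutrophil markers and glycolysis genes, while for macrophage markers and progesterone synthesis the groups overlap. The lower neutrophil mean rests largely on S100A9 and S100A8.

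Neutrophil and granulocyte markers had a lower mean on the stimulated arrays, 3.64, 3.42 and 3.38, than in control (3.81, 3.98 and 4.05) or superovulated animals (4.08, 4.10 and 3.84). All 3 stimulated arrays lay below the other 6, which overlapped among themselves. Of 22 genes 17 had a negative difference, but few were lower by the unadjusted p. At an unadjusted p under 0.05, where all genes had 4.46% lower and 4.73% higher, 4 of the 22 were lower and 1 higher. The 4 lower genes were S100A9, S100A8, S100A12 and the gelatinase MMP9, and the higher gene was the elastase gene ELANE. The list's mean difference was -0.50, but its median was -0.10, and -0.17 without stimulated replicate 1. S100A9 and S100A8, described above, weigh heavily in the mean, with -3.91 and -2.42. The lower list mean is therefore not separate from their values. MMP9 had 2.61, 2.94 and 2.90 in stimulated, 3.17, 3.35 and 3.06 in superovulated and 4.58, 3.76 and 4.37 in control animals, so it also differed between the other groups, by -1.05. S100A12, a further calgranulin, named to complete the count, had -1.59 (SE 0.68) with overlapping arrays. The granule and receptor genes MPO, ELANE and CXCR1 were dim in every animal, with signals between 2.33 and 3.19, and their differences were 0.03, 0.13 and -0.11. Whether neutrophil number had a part in the calprotectin values was not tested.

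Genes of glycolysis and the hypoxia response had slightly lower signal. Among all genes 4.46% were lower and 4.73% higher at an unadjusted p under 0.05, and 2.38% parted downward. In the list 9 of 36 genes were lower and 0 higher by that p, and 5 parted the groups downward (13.9%). The median was -0.12, against 0.06 between superovulated and control. HK1, hexokinase 1, had the smallest p, with 10.21, 10.24 and 10.02 in stimulated, 10.45, 10.45 and 10.52 in control and 10.64, 10.60 and 10.60 in superovulated animals. Its difference was -0.39 (SE 0.06, limma adjusted p = 0.244). PKM, the pyruvate kinase, had -0.86 (SE 0.19), and TPI1, triosephosphate isomerase, -0.36 (SE 0.08). Averaged over the list, the arrays parted the groups by a small margin, 9.05, 9.14 and 9.01 in stimulated against 9.14 to 9.39 in the others. The count of lower genes was 5 without stimulated replicate 3, and 6 without control replicate 2, control replicate 3 or superovulated replicate 2. Over all genes that count was 407 with all arrays. Without the same arrays in turn it was 277, 395, 293 and 391.

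Acyl-CoA synthetases and enzymes of fatty acid oxidation held single genes with higher signal rather than a shift of the list. At an unadjusted p under 0.05, 5 of 38 genes were higher and 1 was lower, against 4.73% and 4.46% of all genes. The list's median was 0.11. The count of higher genes was 2 without stimulated replicate 1 or stimulated replicate 3. Over all genes it was 355 and 238 without these arrays, against 431 with all arrays. The list's median ran from 0.03 without stimulated replicate 1 to 0.21 without stimulated replicate 2. Besides ACSM1, ACSF2, another mitochondrial acyl-CoA synthetase, had 9.96, 9.86 and 10.12 in stimulated, 9.16, 9.005 and 9.03 in control and 9.11, 8.76 and 9.24 in superovulated animals. Its difference was 0.93 (SE 0.11, limma adjusted p = 0.0871), with -0.03 between the other groups. ACSL3, a long-chain synthetase of lipid droplets, had -0.35 (SE 0.11), and -0.22 without stimulated replicate 2. Its other probe sets had -0.25 and 0.12, and the mean of the 3 was -0.16.

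Other members with small p lay in lists whose medians were near 0. CERT1, a transfer protein for ceramide, had 6.52, 6.44 and 6.53 in stimulated animals. It had 6.08, 6.10 and 6.30 in superovulated and 5.71, 5.71 and 5.80 in control animals, so the superovulated group lay between the others. Its difference was 0.55 (SE 0.07, limma adjusted p = 0.0871). The median of the 27 sphingolipid genes was -0.02, with -0.05 to 0.01 when any 1 array was left out.

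In the activin system FST and FSTL3, both extracellular antagonists, had differences of opposite sign, and neither passed. FST, follistatin, which like FSTL3 binds activin, had 10.24, 10.01 and 9.65 in stimulated, 7.99, 5.88 and 8.17 in control and 6.79, 9.63 and 9.18 in superovulated animals. Its difference was 2.02 (SE 0.72, limma adjusted p = 0.531), and the lowest stimulated array exceeded superovulated replicate 2 by 0.01. INHBA, the activin A subunit, had 0.46 (SE 0.25), and INHA, the inhibin alpha subunit, 0.02 (SE 0.23). Among the list's 12 genes 1 (FST) was higher and 1 (FSTL3) lower by the unadjusted p, against 4.73% and 4.46% of all genes. The list's median was -0.05. Without stimulated replicate 1 or 2 the count of higher genes was 0. Over all genes it was 355 and 507 without these arrays, against 431 with all arrays.

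By the unadjusted p, 3 of 40 angiogenic factors and receptors were higher and 1 was lower, near the 4.73% and 4.46% of all genes, with a median of 0.09. Without control replicate 2 the count of higher genes was 6, and over all genes it was 458, against 431 with all arrays. Leaving out stimulated replicate 2 gave a median of 0.01, control replicate 3 one of 0.03. ANGPT1, which steadies capillaries through the receptor TEK, had 5.14, 5.06 and 5.62 in stimulated against 4.00 to 4.62 in the other animals. CD36, a receptor of thrombospondin and fatty acids, had 9.56, 10.13 and 9.96 against 8.79 to 9.31. Both parted the groups, with differences of 0.88 (SE 0.18) and 0.83 (SE 0.18). VEGFA, the main luteal angiogenic factor, had 0.11 (SE 0.12), but its other probe set had -0.26, and the mean of both was -0.08. FLT1, a receptor of VEGFA, had 0.48 (SE 0.17). The other probe sets of FLT1 had -0.02 and 0.16, and the mean of the 3 was 0.20.

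Genes of progesterone synthesis did not set the low-dose group apart. By the unadjusted p, 1 of 15 genes was lower and 0 were higher, against 4.46% and 4.73% of all genes. The list's median was -0.02, with -0.04 to 0.03 when any 1 array was left out. The 1 lower gene was TSPO, a cholesterol-binding protein of the outer mitochondrial membrane, with 10.38, 10.51 and 9.38 in stimulated, 10.61, 10.81 and 10.77 in control and 10.83, 11.13 and 11.14 in superovulated animals. Its difference was -0.79 (SE 0.24, limma adjusted p = 0.487), and -0.43 without stimulated replicate 3. STAR, which brings cholesterol into mitochondria, had 0.08 (95% interval -0.10 to 0.25), CYP11A1, which makes pregnenolone, 0.04, and HSD3B1, which makes progesterone from it, 0.05. LHCGR, the receptor of luteinising hormone, had -0.12 (SE 0.32).

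Over all 27 lists the medians ran from -0.30 for cell cycle genes to 0.76 for macrophage markers. Of 61 genes of the cell cycle and DNA replication 55 had a negative difference. Yet 1 of them was lower at an unadjusted p under 0.05 and 0 parted the groups, against 4.46% and 4.39% of all genes. That 1 was CDKN2C, an inhibitor of cyclin-dependent kinases, with -0.39 (SE 0.15). Averaged over the list, the arrays had 7.27, 7.24 and 6.90 in stimulated, 7.11, 8.31 and 7.44 in control and 7.65, 8.12 and 6.19 in superovulated animals, so the lowest animal was superovulated. Its median was -0.10 without superovulated replicate 2, -0.15 without control replicate 2, -0.18 without stimulated replicate 3 and -0.63 without superovulated replicate 3. In the last case the count of lower genes was 14, and over all genes it was 478, against 407 with all arrays. The 75 oxidative phosphorylation subunits had a median of -0.02, with -0.07 to 0.04 when any 1 array was left out, and 0 of them parted the groups.

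**Figure D5:**
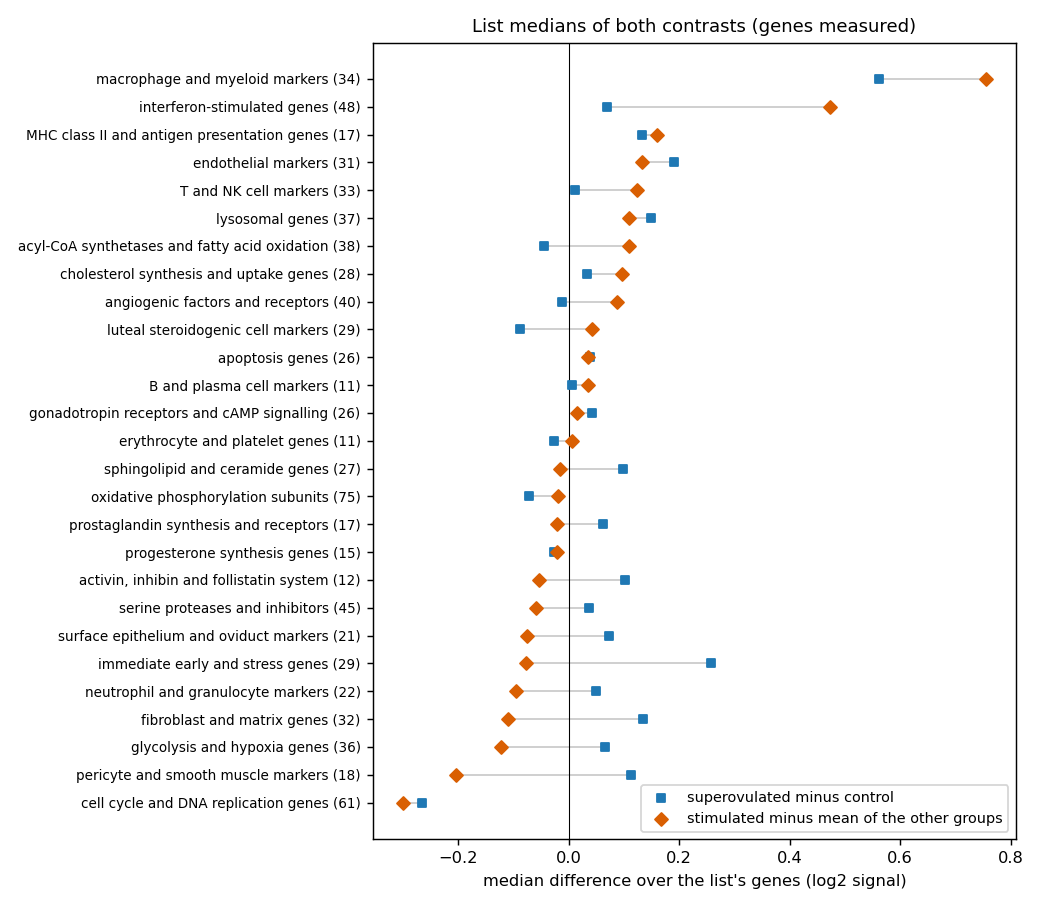
Median log2 difference over the genes of each of 27 lists, for stimulated against the mean of the other groups (orange diamonds) and for superovulated minus control (blue squares); genes measured are in parentheses. Interferon-stimulated genes have 0.47 and 0.07, macrophage markers 0.76 and 0.56, and cell cycle genes -0.30 and -0.27.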

How the data were processed

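The authors deposited 1 table of values for 24128 probe sets (112 controls) and 9 arrays. Per the labels, biotinylated cRNA of each animal went to 1 Affymetrix array. How the authors summarised and normalised the scans, and the log base, is not stated here by any label or header (not given in the sources used here). As deposited, the numbers lack their decimal mark and have no standard unit; with the mark restored they lie under 16 and were read as log2 signals. Runs open to both readings made up 15.5% of cells and were settled from the other arrays or the spread between arrays. For probe sets open on all 9 arrays, settled by that spread, 1.86 wrong readings were expected. No such estimate was made for the 1563 probe sets settled from the other arrays. Those of S100A8, S100A9, FSTL3 and IFI6 described above are among them. A further 74 probe sets that could not be settled were dropped, so 23942 were tested.

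Gene names were taken from GEO's annotation of the array (13292 probe sets with 1 symbol, 86 with several, 10638 with none), and 8550 of 9155 symbols stand in a RefSeq table used for names alone. The probe set with the highest mean stood for each of 9121 genes. limma (version 3.58.1, R 4.3.3) fitted 1 mean per group on all 9 arrays, with 6 residual degrees of freedom, eBayes, 2-sided tests and Benjamini-Hochberg adjustment over 23942 probe sets. Steps were tested on simulated data.

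The members and the 27 lists were chosen with earlier results of these data known, so lists are described by counts and medians alone. Named genes were those that passed and up to 12 per direction that parted the groups by at least 1. To these were added up to 3 of each list with an unadjusted p under 0.05, and a fixed set of genes. The fixed set was also chosen with earlier results known and includes PRSS2, ACSM1, FSTL3, S100A9 and FCGR3A. The labels call the samples biological replicates, 1 animal each. The number of arrays limits the precision. Same-numbered arrays of different groups had deviations from their group means that correlated by -0.039 to 0.378, above 0.1 for the 3 pairs of stimulated and superovulated but not for all pairs with control. Those of different number ran from -0.356 to 0.256. Since not every pair exceeded 0.1, the fit has no block. Alternatives were quantile normalisation, probe sets without open runs, a filter on dim probe sets, a trended robust prior, 1 mean for the 6 other arrays, replicate number as a block, the mean of a gene's probe sets and leaving out each array.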

Additional observations from a re-analysis of the deposited data

Results flagged for a closer look

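Outliers were sought in 116 series of 6 values, for 89 named genes and 27 list means on the control and superovulated arrays. In 6 series 1 animal lay far from the other 5 by Dixon's test. Chance gives about 1 in 20, so the count of 6 is near that expected by chance. Superovulated replicate 2 accounted for 4 of them. It had a KRT18 signal of 8.79, against 4.89 to 5.77 in the other 5. This same animal enlarged the difference by which KRT18 was named, which was -1.21 with it and -0.60 without it. Its mean over immediate early and stress genes was 8.88, against 8.17 to 8.40, and its mean over gonadotropin receptor and cAMP signalling genes was 6.32, against 6.11 to 6.17. Its INHA signal was 11.27, below the 11.89 to 12.20 of the others. ADIPOR2, an adiponectin receptor, stood at 9.04 in control replicate 3, against 8.35 to 8.58. CLDN7, an epithelial tight junction gene, stood at 2.84 in superovulated replicate 3, against 2.68 to 2.73, all near the dim end of the array.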

How the results depend on the processing

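PRSS2 passed under every setting tried, with a difference of -6.47 to -6.15 and adjusted p of 0.000104 to 0.0144 in limma. The count of passing probe sets, 1 in the reported fit and under quantile normalisation, was 2 on probe sets without open runs, 2 without the dimmest 25%, 3 with the trended robust prior and 2 with 1 mean for the 6 other arrays. With replicate number as a block it was 2, and the adjusted p of PRSS2 was 0.00304 in limma. Whether the numbers pair animals is not given by the labels: 7 of 9 same-number correlations exceeded 0.1, among them all 3 between stimulated and superovulated (0.203, 0.378 and 0.159), and 2 did not. Leaving out 1 array gave 1 to 2. The added probe sets carry no symbol, apart from ACSM1 under the trended prior (limma adjusted p = 0.0326). The same probe set without a symbol, higher by 1.90, passed without open runs, without the dimmest 25% and with the trended robust prior. It also passed with 1 mean for the 6 other arrays and with the block (limma adjusted p of 0.0179 to 0.0445 over these settings). An unadjusted p under 0.05 against both groups was reached by 619 probe sets. Leaving out 1 array, the 980 parted probe sets became 1104 to 2762 and the 73 that parted by at least 1 became 65 to 181, with fewer arrays to part. Both counts were highest without stimulated replicate 2 (2419 and 124 without replicate 1, 1777 and 106 without replicate 3). Between superovulated and control 0 to 1 passed, 1 without stimulated replicate 3. ACSM1 had adjusted p of 0.0326 to 0.302 over all settings. With the dimmest probe sets left out the medians of neutrophil markers and of MHC class II genes were -0.34 and 0.37. Signals near the dim end limit the sizes of PRSS2, PRLR and MMP9 differences.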

Other observations

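Among 17 prostaglandin genes 3 were lower and 1 was higher at an unadjusted p under 0.05, where all genes had 4.46% lower and 4.73% higher, and 0 parted the groups. Leaving out any 1 of the stimulated animals gave 1 lower gene. Over all genes the count of lower genes was 413, 371 and 277 without stimulated replicates 1, 2 and 3, against 407 with all arrays. PTGDS, which makes prostaglandin D2, had 8.42, 5.71 and 5.23 in stimulated, 6.79, 8.48 and 10.26 in control and 9.45, 8.83 and 10.58 in superovulated animals, a difference of -2.61 (SE 0.93) that ranged from -3.60 without stimulated replicate 1 to -2.001 without stimulated replicate 3. PTGIS, the prostacyclin synthase, had -0.98 (SE 0.35). PLA2G1B, a secreted phospholipase, had 0.95 (SE 0.27). PTGFR, the receptor through which prostaglandin F2 alpha ends the corpus luteum's life, had 0.01 (SE 0.10).

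By the same p, by which all genes had 4.73% higher and 4.46% lower, 4 of 33 T and NK cell markers were higher and 0 lower. Their median was 0.12. GNLY, which killer cells release to lyse targets, had 6.20, 4.39 and 6.73 in stimulated animals against 3.05 to 4.74 in the others, and CD8A, a T cell coreceptor, had 5.13, 3.18 and 3.76 against 2.48 to 3.29. The difference of CD8A was 1.13, and 0.58 without stimulated replicate 1. Both overlapped, and stimulated replicate 2 was the lowest of the 3. The count was 1 without stimulated replicate 1 (median 0.03), 2 without control replicate 3 and 8 without stimulated replicate 2. Over all genes the count of higher genes was 355, 322 and 507 in these cases, against 431 with all arrays. Of 17 genes of MHC class II and antigen presentation 5 were higher and 0 lower, with a median of 0.16. The median was 0.33 against control and 0.09 against superovulated, with 0.13 between superovulated and control. Leaving out stimulated replicate 1 gave 1 higher gene and a median of 0.27. Leaving out control replicate 3 or superovulated replicate 1 gave 3 higher genes. Over all genes the count of higher genes was 355, 322 and 404 without these arrays in turn, against 431 with all arrays. BOLA-DMB, which helps load peptides onto class II molecules, had 8.00, 7.99 and 7.92 in stimulated, 6.88, 7.42 and 6.08 in control and 7.22, 7.07 and 7.05 in superovulated animals, so the stimulated arrays lay above all 6 others, which overlapped among themselves. The difference of BOLA-DMB was 1.02 (SE 0.25), and that of B2M, the light chain of class I molecules, was 0.29 (SE 0.10). Of 37 lysosomal genes 5 were higher and 0 lower, with a median of 0.11. That median was 0.17 against control and 0.04 against superovulated, with 0.15 between superovulated and control. CTSB, the protease cathepsin B, had 0.41 (SE 0.11) by 1 of its 6 probe sets. The others had -0.07 to 0.43, and the mean of all 6 was 0.21. Leaving out stimulated replicate 3 gave 1 higher gene, and leaving out superovulated replicate 3 gave 8. Over all genes the count was 238 and 484 in these cases.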
